A study of Chlorocebus aethiops with 36 samples.

Results

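The nuclear genes of oxidative phosphorylation were followed in the livers of 12 male African green monkeys, biopsied for 36 human HG-U133 Plus 2.0 arrays. Members were taken by annotated symbol, as the genes of the NDUFA, NDUFB, NDUFC, NDUFS, NDUFV, SDHA to SDHD, UQCR, COX4 to COX8 and ATP5 families. Pseudogenes, antisense symbols and NDUFAF genes were left out, and each gene was read from its brightest probe set annotated to a single gene. This gave 80 genes of 19775, of which 75 passed the filter on dim probe sets, out of 13634 genes that passed it. The 75 comprised 32 genes of complex I, 3 of complex II, 6 of complex III, 15 of complex IV, 17 of complex V and 2 complex II assembly factors (SDHAF1 and SDHAF2), which the symbol rule takes in although they are no subunits. The 5 dim genes were NDUFA5, SDHAF3, SDHAF4, the testis isoform COX7B2 and COX8C. A further 7 symbols were annotated only to probe sets shared by several genes and were not analysed here. They were NDUFC2, NDUFC2-KCTD14, NDUFS5, NDUFS8, UQCRH, UQCRHL and ATP5MF-PTCD1.

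Of the animals, 6 received anti-miR-33, an oligonucleotide that binds and blocks the microRNA miR-33, and 6 received a control anti-miR, both subcutaneously at 5 mg/kg. Biopsies came from week -5 (baseline, untreated, normal chow), from week 4, with treatment under way and chow still fed, and from week 12, after 8 weeks on a high carbohydrate, moderate cholesterol diet. The 6 groups of 6 arrays were therefore anti-miR-33 and control at each of these times, and the arm of a baseline array follows the animal's later labels. All animals received an oligonucleotide and all changed diet after week 4. Time, injection and repeated biopsy therefore cannot be told apart between baseline and the later times. In comparisons with week 12 the diet cannot be told apart from time either. The week 4 array of control animal 1 carried the high carbohydrate label, unlike the other week 4 arrays. The array numbers in the labels form a consecutive run for baseline and week 12 and another for week 4, and what the number stands for is not given. In comparisons of week 4 with another time, the run cannot be told apart from the time.

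Oxidative phosphorylation is the chain of enzymes in the inner mitochondrial membrane that passes electrons from NADH and succinate to oxygen and uses the energy to make ATP. Complex I takes electrons from NADH, complex II takes them from succinate and is also an enzyme of the citric acid cycle, complex III passes them to cytochrome c, and complex IV, cytochrome c oxidase, gives them to oxygen. These steps pump protons out of the matrix, except at complex II, and complex V, the ATP synthase, lets protons back in through its membrane part while its F1 head makes ATP. Complexes I, III, IV and V also hold subunits encoded in the mitochondrial genome, which are not among the genes described here. In liver the chain oxidises the products of fatty acid breakdown. It also supplies ATP for gluconeogenesis and urea synthesis.

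All values are log2 levels from RMA, a method that scales arrays to each other, and differences are on the same scale. Levels were never compared between probe sets, since the probes were designed on human transcripts. A gene was called when its Benjamini-Hochberg adjusted p over all 13634 genes was below 0.05 in a limma fit with the animal as a random block, and ± gives the standard error of that fit unless SD is stated. The labelled tissue was borne out by its markers, as the mean of 11 hepatocyte markers lay between 12.2 and 12.87 on all arrays. The lowest value belonged to the week 12 array of control animal 5, against 12.74 to 12.87 in the week 12 anti-miR-33 group. In a biopsy, fewer cells of a type and less RNA per cell cannot be told apart. The difference between the 3′ and 5′ control probe sets of GAPDH and ACTB, which is large where RNA is degraded, averaged 2.57 ± 0.43 in baseline livers, 1.94 ± 0.41 in week 4 livers and 1.83 ± 0.16 in week 12 livers (SD, n = 12 each).

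No oxidative phosphorylation gene passed the test between the arms at any time. The share of all tested genes called was also 0%, and in limma 0 of the 75 members were called at baseline, at week 4 or at week 12. At an unadjusted p below 0.05 the member counts were 0 at baseline, 4 at week 4 and 3 at week 12, against 531, 662 and 414 of all genes. Every other fit tried also called 0 members between the arms.

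Small differences between the arms were nevertheless mostly of a single sign after treatment. At baseline, before treatment, 33 of 75 members (44%) had a higher mean in the anti-miR-33 arm, with a median difference of -0.01. At week 4, 54 of 75 members (72%) had a higher mean in anti-miR-33 livers than in control livers, with a median difference of 0.06, against 53.3% of all tested genes and a median of 0.01. At week 12 it was 57 of 75 (76%), with a median of 0.05, against 49.4% of all genes and a median near 0. Values of other lists ran beside these. At week 12 all 11 hepatocyte markers had a higher mean in the anti-miR-33 arm (list mean 12.81 against 12.67 in control) and 0 of 6 macrophage markers did. Of 61 cytosolic ribosome genes 43 were higher in the anti-miR-33 arm at week 4 and 41 at week 12. Their part in the members' differences was not tested. The members' levels moved together from array to array, so these counts do not come from 75 independent genes.

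By complex, the means over subunits overlapped between the arms at every time. Complex I averaged 8.86 ± 0.07 in anti-miR-33 livers and 8.78 ± 0.15 in control livers at week 4, and 8.93 ± 0.10 and 8.87 ± 0.13 in the same order at week 12 (SD, n = 6 each). Complex III averaged 9.20 ± 0.06 in anti-miR-33 livers and 9.13 ± 0.14 in control livers at week 4 (SD, n = 6 each). Complex II ran the other way, at 8.72 ± 0.13 in anti-miR-33 livers and 8.78 ± 0.12 in control livers at week 12 (SD, n = 6 each), and its mean was already lower in the anti-miR-33 arm at baseline (8.43 against 8.56). Over all members the difference was 0.05 at week 4 and 0.05 at week 12. The animals carry these values unevenly. At week 4 the difference was 0.08 without control animal 1, 0.02 without control animal 4 and 0.03 without control animal 5. At week 12 it was 0.01 without control animal 5.

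**Figure D1:**
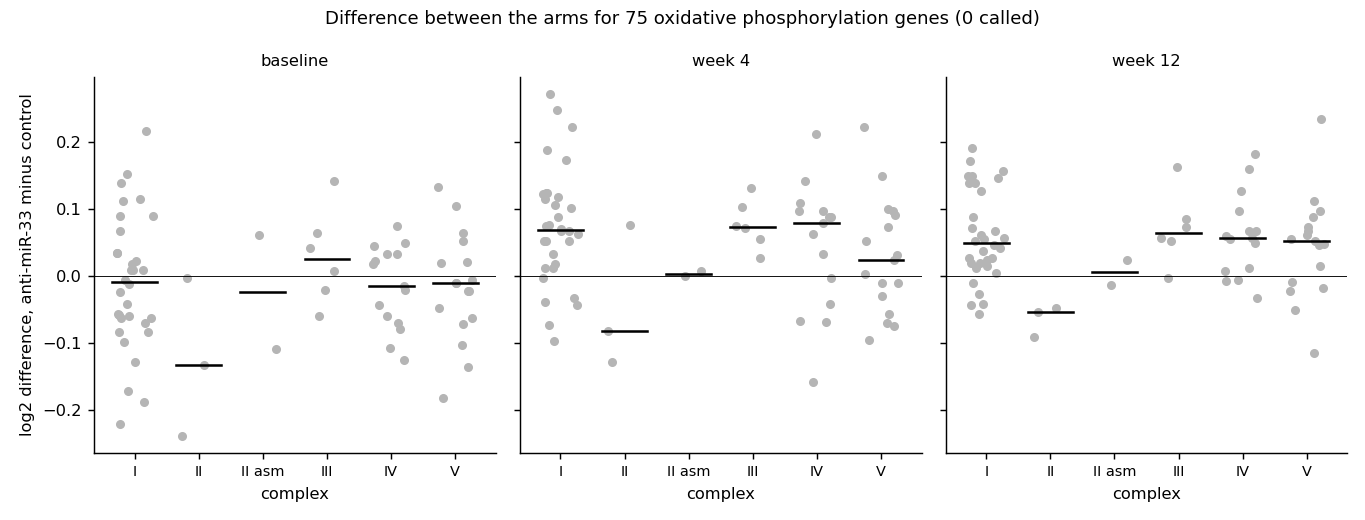
Difference between the arms (anti-miR-33 minus control, log2, vertical axis) for each of 75 genes, grouped by complex (II asm, assembly factors of complex II), at baseline, week 4 and week 12. Each point is a gene, black bars are medians, and grey marks genes not called, which here is all of them; most points of complexes I, III and IV lie above 0 at weeks 4 and 12.

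The smallest p between the arms at week 4 belonged to ATP5MC1, which encodes the c subunit of the proton-driven ring of the ATP synthase. It lay at 8.27, 8.51 and 8.65 (lowest, median, highest) in anti-miR-33 livers, against 8.17, 8.25 and 8.49 in control livers, and the groups overlapped. The difference was 0.22 ± 0.08 (adjusted p = 0.998 in limma). NDUFA13, an accessory subunit of complex I also known as GRIM-19, differed by 0.27 ± 0.10 and COX6C by 0.21 ± 0.10 (limma, adjusted p = 0.998 for each). In the other direction COX7A2L, which ties complexes III and IV together, differed by -0.16 ± 0.07 at week 4, with 6.99, 7.13 and 7.20 in anti-miR-33 livers and 7.11, 7.29 and 7.35 in control livers, which overlapped. SDHD at -0.13 ± 0.10 and NDUFA8 at -0.10 ± 0.11 followed it. None of these passed the test.

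The gene of smallest p between the arms at week 12 was ATP5MG, subunit g of the membrane part of the ATP synthase. Its level had a minimum of 11.37, a median of 11.47 and a maximum of 11.52 in anti-miR-33 livers, against 11.07, 11.22 and 11.37 in control livers. The groups met at a single value. The difference was 0.24 ± 0.08 (unadjusted p = 0.00438, adjusted p = 0.998 in limma), and the gene's other probe sets gave 0.21, 0.16 and 0.26.

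The next members in the order of p at week 12, in each direction, were also not called. They were COX8A (0.18 ± 0.09) and NDUFA1 (0.17 ± 0.08) on the higher side, and ATP5MF (-0.12 ± 0.11), SDHA (-0.09 ± 0.12) and NDUFV3 (-0.06 ± 0.09) on the lower side. At baseline, before treatment, differences were of the same size, with NDUFA3 at 0.22, NDUFV2 at -0.22 and SDHA, the flavoprotein of complex II, at -0.24. The change over time was compared between the arms as well. The member count called was 0 for each of these comparisons (0% of all genes), with 2, 4 and 2 members below an unadjusted p of 0.05 for baseline to week 4, baseline to week 12 and week 4 to week 12. Of all 13634 genes, 478, 299 and 487 lay below it in the same order.

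Between times many members were called, and the arms were pooled for these comparisons. From baseline to week 4 the main movement was down. In limma 32 of 75 members (42.7%) fell and 9 (12%) rose, where 20.6% of all tested genes were called lower and 15.1% higher. The median change of the members was -0.11, against -0.01 for all genes. The mean over all members was lower at week 4 in 10 of 12 animals, with a change of -0.08 ± 0.10 (SD, n = 12).

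Genes that fell by week 4 were found in complexes I, III, IV and V, with the largest number in complex I. Of the 32 complex I genes 17 fell and 4 rose, with a median of -0.16. Complex III had 3 of 6 lower, complex IV 5 of 15 lower and 2 higher, and complex V 6 of 17 lower and 3 higher, with the complex V mean lower in 6 of 12 animals (-0.03 ± 0.11, SD), while none of the 3 complex II genes was called. Within complex I, 15 of the 27 accessory subunits fell and 2 rose, and of the 5 core subunits measured, which belong to the conserved part of the enzyme that does the electron transfer, 2 fell and 2 rose. A difference between complexes in these counts was not tested.

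**Figure D2:**
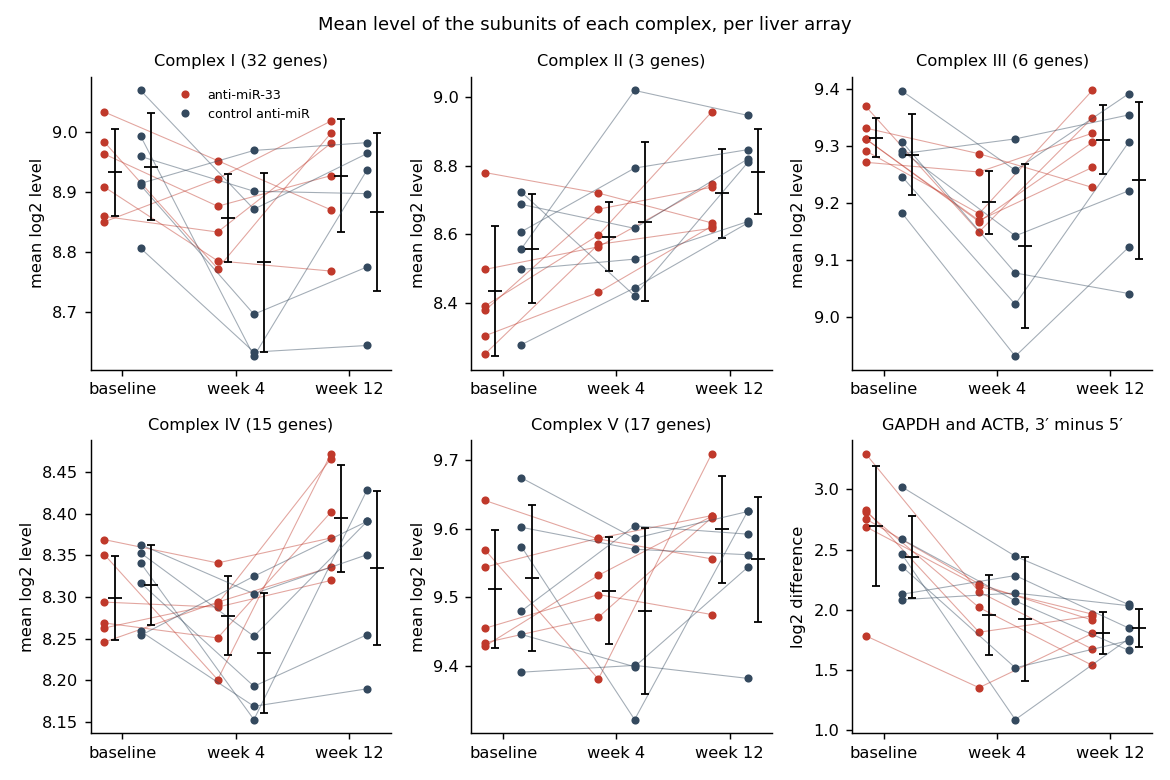
Mean log2 level over the subunits of each complex, and the 3′ minus 5′ difference of GAPDH and ACTB (log2), at baseline, week 4 and week 12; red points are anti-miR-33 animals and dark points control animals, with thin lines joining the arrays of an animal and black marks for the mean and SD (n = 6). The complex III mean is lower at week 4 than at baseline in 11 of 12 animals, complex IV is higher at week 12 than at week 4 in 12 of 12, and the 3′ minus 5′ difference averages 2.57 at baseline.

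NDUFC1, a small accessory subunit of the membrane arm of complex I, had the largest fall. Its level was 7.08, 7.31 and 7.65 (lowest, median, highest) at baseline, 6.44, 6.86 and 7.16 in week 4 livers, and 6.72, 7.13 and 7.32 in week 12 livers. Week 4 and baseline overlapped slightly, and 12 of 12 animals were lower at week 4. The gene fell by 0.52 ± 0.07 (adjusted p = 5.11e-07 in limma), and a dimmer probe set, below the filter, was 0.08 higher at week 4.

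NDUFS6, a zinc-binding accessory subunit next to the NADH-binding part, lay at 8.19, 8.55 and 8.73 in baseline livers, 7.55, 7.98 and 8.41 in week 4 livers, and 7.29, 8.08 and 8.41 in week 12 livers. All 12 animals were lower at week 4 and all 12 at week 12 than at baseline. It fell by 0.49 ± 0.09 at week 4 (adjusted p = 3.19e-05) and by 0.47 ± 0.09 at week 12 (adjusted p = 6.95e-05 in limma). This is a gene that did not come back between weeks 4 and 12, where its change was 0.02.

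Other complex I genes fell less. NDUFAB1, the mitochondrial acyl carrier protein, fell by 0.29 in 9 of 12 animals, NDUFA9 by 0.28, NDUFA6 by 0.28 and NDUFS3, a core subunit, by 0.27. For NDUFA6 a dimmer probe set went the other way (0.15 higher at week 4), and the mean of its probe sets ended the call (-0.07). NDUFS1, the largest core subunit, fell by 0.14, a call that ended when any of control animals 2, 3 and 4 or anti-miR-33 animals 2 and 5 was left out (-0.12 to -0.15) and with quantile normalization (-0.08). Of the other named core subunits NDUFV1, which binds the flavin, changed by -0.01 without a call.

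Members of complexes III and IV fell alongside. The core proteins UQCRC1 and UQCRC2 of complex III fell by 0.25 and 0.24, and the small subunit UQCR10 by 0.28. A dimmer UQCRC2 probe set gave -0.02. A dimmer UQCR10 probe set gave 0.26 in the other direction, and the mean of the UQCR10 probe sets was -0.01. COX4I1, the regulatory subunit of cytochrome c oxidase, lay at 9.60, 9.73 and 10.03 in baseline livers and 9.33, 9.50 and 9.64 in week 4 livers. It was lower in 12 of 12 animals and fell by 0.29 ± 0.05 (adjusted p = 5.69e-05 in limma). COX5A fell by 0.25 and COX7A2 by 0.18, calls that ended with the mean of all probe sets for COX5A (-0.08) and with quantile normalization for COX7A2 (-0.11).

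The ATP synthase was divided within its own F1 head. ATP5F1A and ATP5F1B, the alpha and beta subunits that form the catalytic ring, fell by 0.43 ± 0.06 (adjusted p = 3.91e-07) and 0.20 ± 0.06 (adjusted p = 0.00397 in limma). ATP5F1E, the epsilon subunit of the central stalk, lay at 8.51, 8.62 and 8.79 in baseline livers and 8.18, 8.27 and 8.42 in week 4 livers, so that the times did not overlap. It fell by 0.35 ± 0.04 (adjusted p = 1.49e-07 in limma). Its neighbour in the stalk, the delta subunit ATP5F1D, went the opposite way. ATP5F1D rose by 0.28 ± 0.06 in 12 of 12 animals (adjusted p = 0.000296 in limma), and its other probe set gave 0.15. The gamma subunit ATP5F1C changed by 0.16 without a call.

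Of the 9 genes that rose at week 4, ATP5MC3 changed most. It is another of the genes that encode the c subunit of the ring. Its level was 10.47, 11.10 and 11.66 in baseline livers, 11.28, 11.57 and 11.84 in week 4 livers, and 11.24, 11.66 and 11.82 in week 12 livers. It was higher at week 4 in 11 of 12 animals, by 0.46 ± 0.09 (adjusted p = 8.6e-05 in limma), and its other probe sets gave 0.58 and 0.29. The others were the complex I core subunits NDUFV2 (0.28) and NDUFS7 (0.26), the accessory subunits NDUFA7 (0.26) and NDUFS4 (0.22), ATP5F1D, the membrane subunit ATP5MF (0.23), COX8A (0.18) and COX6A2 (0.20), the heart and muscle isoform of subunit 6A. COX6A2 and NDUFS4 were close to the filter of 4.46, at medians of 4.94 and 4.99 at week 4.

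From week 4 to week 12 the direction turned. In limma 22 of 75 members (29.3%) rose and 4 (5.33%) fell, where 13.7% of all tested genes were called higher and 13.9% lower. The median change of the members was 0.11, against 0.01 for all genes. The mean over members was higher at week 12 than at week 4 in 11 of 12 animals (0.09 ± 0.11, SD, n = 12), and the complex IV mean in 12 of 12 (0.11 ± 0.09, SD). Complex I had 8 of 32 higher and 2 lower, complex III 2 of 6 higher, complex IV 6 of 15 higher and 0 lower, and complex V 5 of 17 higher and 2 lower. Complex II had no call in this interval.

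**Figure D3:**
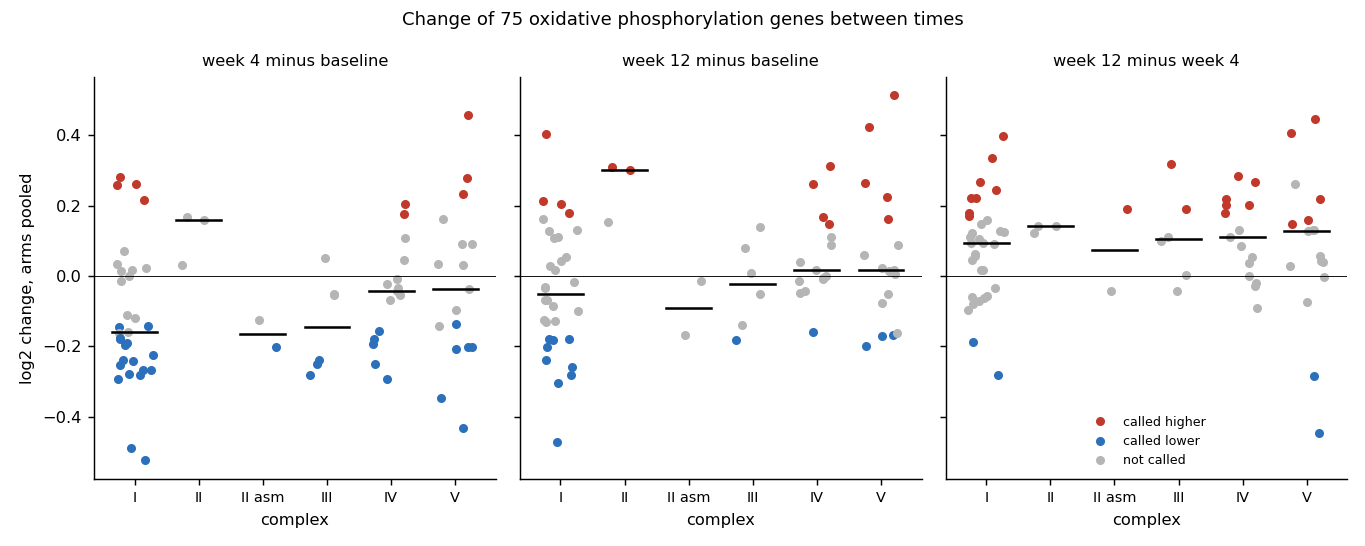
Log2 change of 75 genes, arms pooled, for week 4 minus baseline, week 12 minus baseline and week 12 minus week 4, grouped by complex (II asm, assembly factors of complex II). Red points are genes called higher, blue points genes called lower, grey points genes not called and black bars medians; the complex I median is -0.16 for week 4 minus baseline and the all-member median is 0.11 for week 12 minus week 4.

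ATP5F1A shows the return most fully. It lay at 12.08, 12.22 and 12.54 in baseline livers, 11.53, 11.82 and 12.09 in week 4 livers, and 11.94, 12.29 and 12.39 in week 12 livers. All 12 animals were lower at week 4 than at baseline and all 12 higher at week 12 than at week 4. It rose by 0.45 ± 0.06 in the second interval (adjusted p = 1.3e-06 in limma), and week 12 differed from baseline by 0.01. A dimmer probe set of the gene, below the filter, gave -0.14 for the second interval.

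The same course, with a fall by week 4, a rise by week 12 and no call between week 12 and baseline, was found for 13 members. They were ATP5F1A, ATP5F1B, ATP5MJ, COX5A, COX6B2, COX7A2, NDUFA9, NDUFA10, NDUFA13, NDUFAB1, NDUFB5, UQCRC2 and the assembly factor SDHAF2. The week 4 arrays are shared by both intervals, so a low week 4 level enters the fall and the rise alike. They also form the separate run of array numbers, which cannot be told apart from the time in this course. With the 3′ minus 5′ difference in the fit, NDUFAB1 was called lower at week 12 than at baseline as well (-0.38). The week 4 falls of ATP5MJ (-0.14) and COX7A2 (-0.16) were not called in that fit. NDUFA9, which lies at the junction of the arms of complex I, had 7.78, 8.07 and 8.28 in baseline livers, 7.57, 7.81 and 8.08 in week 4 livers, and 7.84, 8.14 and 8.34 in week 12 livers. It rose by 0.34 ± 0.06 in the second interval in 12 of 12 animals. UQCRC2 rose by 0.32 ± 0.07 in 12 of 12 and NDUFA10 by 0.22 ± 0.05 in 12 of 12, and NDUFB5 by 0.40 ± 0.07 in 11 of 12. A dimmer NDUFA10 probe set, above the filter, went the other way in both intervals (0.12 by week 4, then -0.05). A dimmer UQCRC2 probe set, above the filter, gave -0.02 by week 4 and 0.19 in the second interval.

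Rises between weeks 4 and 12 were also called for genes outside that course. COX7A2L lay at 7.02, 7.23 and 7.50 in baseline livers, 6.99, 7.17 and 7.35 in week 4 livers, and 7.35, 7.49 and 7.61 in week 12 livers. Weeks 12 and 4 met at a single value, and the gene rose by 0.29 ± 0.05 in 12 of 12 animals (adjusted p = 2.79e-05 in limma). ATP5PB, subunit b of the stalk that holds the F1 head still, rose by 0.41 ± 0.07 in 12 of 12 (adjusted p = 0.000133 in limma); its week 4 change from baseline, -0.14 without a call, was a call at -0.38 with the 3′ minus 5′ difference in the fit. NDUFA8, whose week 4 change was likewise a call with that term only (-0.36, against -0.16 without it), rose by 0.27 in 12 of 12, and COX7B by 0.27 in 10 of 12, although the COX7B call ended with the mean of its probe sets (0.10). NDUFC1, which had fallen by week 4, rose by 0.24 in 10 of 12 and stayed below its baseline; the mean of its probe sets gave 0.06 without a call. COX5A, of the 13 above, was called at 0.20, but not with the mean of its probe sets (0.02) or with quantile normalization (0.13).

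The 4 genes that fell in the second interval were ATP5F1D, ATP5MF, NDUFA3 and NDUFV1. ATP5F1D lay at 7.58, 7.79 and 8.01 in baseline livers, 7.81, 8.08 and 8.30 in week 4 livers, and 7.32, 7.70 and 7.80 in week 12 livers. No week 12 array reached the lowest week 4 array, and ATP5F1D fell by 0.45 ± 0.06 in 12 of 12 animals (adjusted p = 1.66e-06 in limma); its other probe set gave -0.31. The gene therefore ran opposite to ATP5F1A in both intervals. ATP5MF and NDUFA3 each fell by 0.28. NDUFV1 fell by 0.19, a call that was lost without control animal 3, 5 or 6 and without anti-miR-33 animal 1, 5 or 6 (-0.15 to -0.19), and with each array centred on its median (-0.17).

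**Figure D4:**
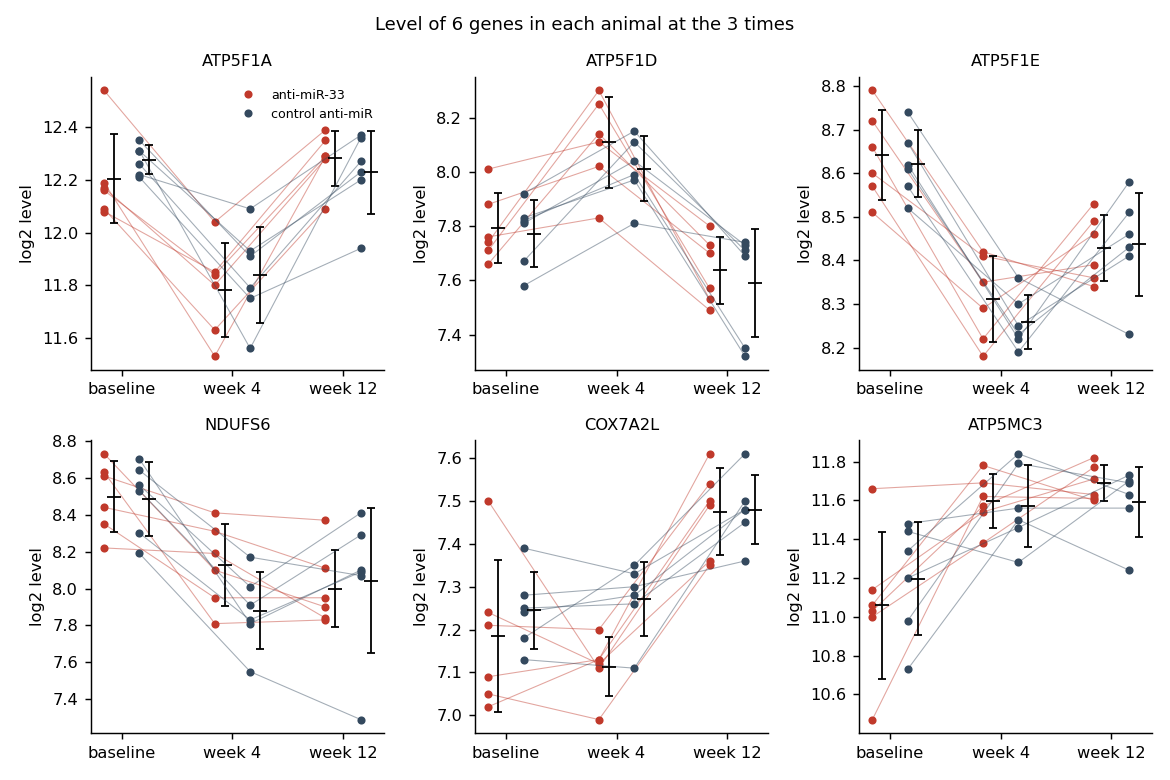
Log2 level of ATP5F1A, ATP5F1D and ATP5F1E of the F1 head, NDUFS6 of complex I, COX7A2L and ATP5MC3 in each animal at baseline, week 4 and week 12. Red points are anti-miR-33 animals and dark points control animals, thin lines join an animal's arrays and black marks give the mean and SD (n = 6); ATP5F1A is lowest and ATP5F1D highest at week 4 in both arms.

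From baseline to week 12 the rises and falls nearly balanced. In limma 15 of 75 members (20%) rose and 14 (18.7%) fell, where 10.9% of all tested genes were called higher and 16.5% lower, and the median change was 0.01, against -0.01 for all genes. The complexes differed in their split. Complex I had 4 higher and 9 lower of 32, complex IV 4 higher and 1 lower of 15, complex V 5 higher and 3 lower of 17, and complex II 2 higher of 3. A difference between complexes was not tested here either. Without anti-miR-33 animal 4 the falls numbered 9 in place of 14, and 14% of all genes were then called lower.

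Of the complexes, complex II had the largest mean change over this interval. The mean of SDHA, SDHC and SDHD was higher at week 12 than at baseline in 11 of 12 animals, by 0.26 ± 0.18 (SD, n = 12). With the 3′ minus 5′ difference in the fit this mean change was -0.02 and neither of the calls below held. SDHD, a membrane anchor of the complex, lay at 6.62, 6.99 and 7.36 in baseline livers, 7.01, 7.13 and 7.66 in week 4 livers, and 7.15, 7.32 and 7.57 in week 12 livers, with overlap between all times. It rose by 0.31 ± 0.07 (adjusted p = 0.000654) and the other anchor SDHC by 0.30 ± 0.07 (adjusted p = 0.00189 in limma), while SDHA changed by 0.15 ± 0.08 without a call. Other SDHC probe sets ranged in their change from -0.04 to 1.23.

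Among the other rises to week 12 were ATP5MC3 (0.51), ATP5F1C (0.42, with 0.42, 0.35 and 0.26 on its other probe sets), NDUFV2 (0.40), COX7B (0.31), ATP5PB (0.26), COX7A2L (0.26), ATP5PD (0.23), which is subunit d of the outer stalk, and NDUFB8 (0.21). For ATP5PD the mean of its probe sets gave 0.09 without a call. Other probe sets above the filter gave 0.63 and 0.07 for ATP5MC3, and 0.32 and -0.18 for NDUFB8. NDUFV2, a core subunit with an iron-sulphur centre, lay at 8.87, 9.45 and 9.79 in baseline livers and 9.65, 9.81 and 10.05 in week 12 livers. COX8A was called at 0.15, but lost the call without any of anti-miR-33 animals 2 to 6 and without any of control animals 1, 2, 4, 5 and 6 (0.13 to 0.15), as well as with the animal as a fixed block.

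The falls to week 12 lay mainly in complex I. NDUFB2, a membrane arm subunit, had 9.73, 9.83 and 9.91 in baseline livers, 9.27, 9.60 and 9.91 in week 4 livers, and 9.29, 9.54 and 9.68 in week 12 livers, so that week 12 did not overlap baseline. It fell by 0.30 ± 0.05 in 12 of 12 animals (adjusted p = 1.38e-05 in limma), with -0.10 and -0.06 on its other probe sets. NDUFA3 fell by 0.26, NDUFA11 by 0.24, NDUFV1 by 0.20, NDUFV3 by 0.18 and NDUFS3 by 0.18. Outside complex I, ATP5F1E fell by 0.20 in 12 of 12 animals, UQCR10 by 0.18 and COX4I1 by 0.16.

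Some of these smaller falls rest on few animals or a single probe set. NDUFV1 was not called when any of control animals 3 and 5 and anti-miR-33 animals 4 and 5 was left out (-0.16 to -0.19). COX4I1 lost its call when control animals 3 or 5 or the anti-miR-33 animal 4 were left out (-0.13 to -0.15), and NDUFV3 without anti-miR-33 animal 4 (-0.14). The mean of all probe sets ended the calls of NDUFA11 (-0.08), NDUFV1 (-0.09), NDUFV3 (-0.10), UQCR10 (-0.06) and COX4I1 (-0.09). Across all members called from baseline to week 12 that had a second probe set above the filter, 10 of 14 had a probe set that gave the opposite sign or less than 50% of the change. The counts were 12 of 17 from baseline to week 4 and 4 of 7 from week 4 to week 12.

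Over the 3 time comparisons 57 members were called at least once and 18 never. On the brightest probe set NDUFS3, NDUFS6, NDUFB2, NDUFB9, NDUFA11, NDUFC1, COX4I1, UQCR10 and ATP5F1E were called below baseline at both later times. ATP5MC3, NDUFV2, NDUFA7, NDUFS4 and COX8A were called above it at both. The other NDUFA11 probe sets gave 0.14 and 0.32 by week 4 and 0.11 and -0.10 by week 12, and that of UQCR10 0.26 and 0.07. A dimmer NDUFA7 probe set gave 0.01 by week 4 and -0.01 by week 12. With the 3′ minus 5′ difference in the fit, only NDUFB2, NDUFC1, NDUFS6 and UQCR10 of all these genes kept the week 12 call. Of the isoforms known from other tissues, the muscle form COX6A2 rose by week 4, and COX6B2, the testis form of subunit 6B, fell by 0.19 by week 4 and rose by 0.18 in the second interval. COX4I2, the lung form of subunit 4, had medians of 5.48 at baseline, 5.44 at week 4 and 5.47 at week 12, and COX7A1, the heart and muscle form of subunit 7A, 7.16, 7.12 and 7.19, with no call. The general form COX6A1 had medians of 9.68, 9.80 and 9.80 and was not called either, with a week 4 change of 0.11 that passed the test with quantile normalization (0.16), with the mean of its probe sets (0.13) and with control animal 4 (0.15) or, in the other arm, animal 2 (0.14) left out.

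The 3′ minus 5′ difference moved with the levels. Within the 12 baseline arrays it correlated with the mean over all members at Pearson r = -0.72 (Spearman rho = -0.76) and with the complex II mean at r = -0.97 (rho = -0.97). Without the 2 arrays farthest from its median the values of r were -0.67 and -0.96. Within the 12 week 4 arrays they were -0.79 (rho = -0.85) and -0.93 (rho = -0.92), or -0.66 and -0.91 without the 2 farthest, and within week 12 they were -0.20 (rho = -0.11) and -0.28 (rho = -0.20), where r became 0.51 and 0.18. These are descriptions with no test, taken from 18 pairs of a mean (all members or a complex) and a time. Which arrays were processed together is not given.

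With that difference as a term in the limma fit, the rises from baseline were the calls that changed most. From baseline to week 12, 0 of 15 rises and 4 of 14 falls kept their call (NDUFB2, NDUFC1, NDUFS6 and UQCR10), while 0.902% of all genes were then called higher and 4.72% lower. SDHC then stood at -0.01, SDHD at 0.03, ATP5MC3 at 0.11, NDUFV2 at 0.09 and ATP5F1C at 0.11. From baseline to week 4, 27 of 32 falls and 2 of 9 rises (ATP5F1D and NDUFA7) kept theirs, while 15.9% of all genes were then called lower and 9.33% higher. The falls that lost their call were those of ATP5MJ, COX7A2, NDUFA11, NDUFS1 and UQCRC1. Falls such as those of ATP5F1A (-0.60), NDUFC1 (-0.70) and UQCRC2 (-0.47) were larger with the term than without it. A further 8 members were called lower at week 4 only with the term (ATP5MG, ATP5PB, COX6C, COX7C, NDUFA8, NDUFA12, NDUFB3 and NDUFB4), and 3 at week 12 (NDUFA6, NDUFA12 and NDUFAB1). Between weeks 4 and 12 all 26 calls held, as with ATP5F1A at 0.41 and ATP5F1D at -0.44, while 13.6% of all genes were called higher and 13.5% lower. The mean values of the difference lay close together there, so the term could move these estimates little. Its average also hides that GAPDH exceeded ACTB on every week 4 array, as with 2.80 against 2.09 in control animal 5. Neither was always the larger at baseline or at week 12. Whether the calls hold against such a shift was not tested.

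**Figure D5:**
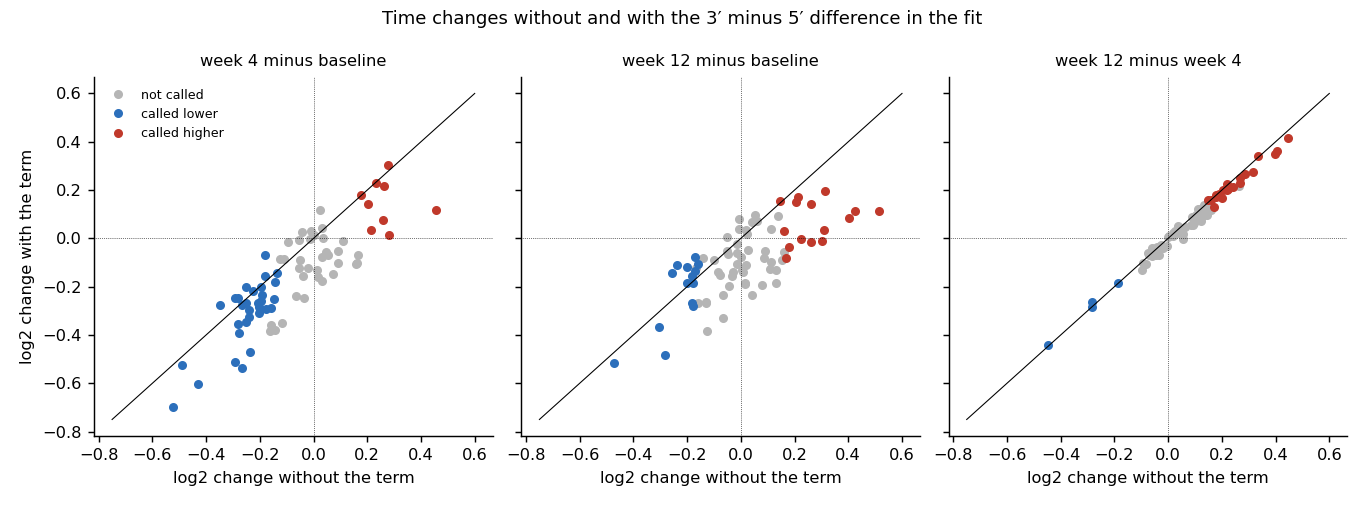
Log2 change of each of 75 genes without (horizontal axis) and with (vertical axis) the 3′ minus 5′ difference as a term in the fit, for week 4 minus baseline, week 12 minus baseline and week 12 minus week 4. Red, blue and grey mark genes called higher, called lower and not called without the term, and the line marks equal values; points lie close to the line for week 12 minus week 4, and all 15 rises to week 12 lose their call with the term.

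Deviations from the group means were shared among members, more in some complexes than in others. Over 36 arrays the median pairwise r was 0.30 among all members, 0.41 in complex I, 0.51 in complex II, 0.27 in complex V, 0.17 in complex III and 0.11 in complex IV, against 0.00 among all tested genes. These are descriptions with no test, and the arrays share RNA quality and cell makeup.

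Other genes of the pathway were called in both directions too, and their counts stand beside 20.6% of all tested genes lower and 15.1% higher by week 4, and 13.9% lower and 13.7% higher in the second interval. Of 41 assembly factors that passed the filter, 3 rose and 8 fell by week 4 and 10 rose and 2 fell between weeks 4 and 12. Of 13 citric acid cycle genes 2 rose and 5 fell by week 4, among them citrate synthase CS at -0.15 ± 0.06, and 3 rose and 2 fell in the second interval. Of 19 electron carriers and related genes 2 rose and 7 fell by week 4, and 7 rose and 0 fell between weeks 4 and 12. ATP5IF1, the inhibitor protein of the ATP synthase, took the same course as ATP5F1A, as it fell by 0.38 ± 0.09 by week 4 and rose by 0.28 ± 0.09 by week 12. Of the regulators of mitochondrial genes, TFAM rose by 0.16 ± 0.06, though not on all of its probe sets, and ESRRA fell by 0.16 ± 0.06 between weeks 4 and 12. The coactivator PPARGC1A changed by -0.66 ± 0.31 by week 4, PPARGC1B by 0.04 and NRF1 by 0.10, none of them called. Neither CYC1 nor CYCS was called in any time comparison. CYC1 encodes cytochrome c1, a subunit of complex III that the symbol rule leaves out, and CYCS encodes cytochrome c.

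Lists outside the respiratory chain were counted in the same fit, against the same shares of all genes. Of 61 cytosolic ribosome genes, 41 fell and 4 rose by week 4, and 21 rose and 3 fell between weeks 4 and 12. Of 70 mitochondrial ribosome genes 22 fell and 8 rose by week 4, and 17 rose and 6 fell in the second interval. Of 13 proteasome core genes 4 fell by week 4, and 9 rose and 0 fell between weeks 4 and 12.

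Markers of other liver cells also moved between the times. All 7 endothelial markers fell by week 4 (median -0.69) and by week 12 (median -0.72), with a mean level of 6.85 to 7.58 at baseline and 6.16 to 7.17 at the later times over single arrays. None of the 11 hepatocyte markers was called at week 4 (median -0.04), and 3 rose between weeks 4 and 12. Of 4 erythroid markers 3 fell in the second interval, and 2 of 6 macrophage and 2 of 6 stellate markers fell by week 4. On this log2 scale no marker reads 0, and the part of cell makeup in the changes of the oxidative phosphorylation genes was not tested.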

How the data were processed

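The authors deposited log2 values for 54675 probe sets and 36 arrays, made with RMA per the submitters' processing notes. The version of that tool, and whether it was run once on all arrays, is not given in the sources used here. Deposited values ran from 2.41 to 15.07. By the platform annotation 41097 probe sets had 1 gene, 1801 several and 11777 none. Each of 19775 genes was read from its brightest probe set by mean level, and genes whose mean fell short of the all-probe-set median (4.459) were left out. Symbols can be old, and some subunit genes were not analysed here.

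All 36 arrays were fitted in limma 3.58.1 under R 4.3.3, with a mean for each of 6 groups and a random block for the animal (correlation 0.151), since the labels give each animal's identifier. Tests were two-sided and moderated, adjusted by Benjamini-Hochberg within each of 9 comparisons. In simulated data for baseline to week 12, 200 of 13634 genes were changed and genes were drawn independently of each other. There 62% of changes of 0.3 and 97% of changes of 0.6 were called, and 5.92% of calls were false. In the real data genes moved together and far more were called, so these rates need not hold for them. Comparisons between the arms were not simulated. The number of arrays limits the precision. Named genes were the called members of largest change, at most 10 per direction, or, where a direction had no call, the 3 with the smallest p, besides fixed core subunits, isoforms and pathway genes. Alternatives were another normalization, centring, the filter, the mean of probe sets, the block, the 3′ minus 5′ term, and leaving out animals or arrays; the fits within an arm and the combined settings were chosen after seeing the data. Members and lists were chosen with earlier results of these data known.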

Additional observations from a re-analysis of the deposited data

Results flagged for a closer look

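A Dixon test at the 95% level was made in 306 groups of 6 arrays over 45 genes and the complex means. In 13 of these a value stood apart from the rest of its group, some of them on the same array. Chance gives about 1 in 20 groups, so this number is no excess. At week 12 the array of control animal 5 was low for the complex V mean (9.382), NDUFS6 (7.29) and ATP5MC3 (11.24), and it also had the lowest hepatocyte marker mean. At week 12 the anti-miR-33 animal 4 was low for ATP5F1A (12.09), NDUFA10 (7.49) and NDUFB8 (11.49), anti-miR-33 animal 5 was at 9.44 for COX7A2, and anti-miR-33 animal 2 was at 7.56 for COX7A1. At week 4 SDHA stood at 8.44 in anti-miR-33 animal 2 and SDHD at 7.01 in anti-miR-33 animal 4. At baseline anti-miR-33 animal 1 was high for ATP5F1A (12.54) and NDUFS4 (5.07), and control animal 6 was high for ATP5F1B (12.05).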

How the results depend on the processing

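Between the arms 0 members were called in every fit tried. With the 3′ minus 5′ term, members called from baseline to week 4 were 2 higher, and from baseline to week 12 they were 0 higher and 7 lower. Of all genes, 9.33% were then called higher by week 4, and 0.902% higher and 4.72% lower by week 12. With the term and arrays centred the members were 3 higher, and 0 higher and 6 lower, beside 10.1%, 1.25% and 3.7% of all genes. The baseline to week 12 mean change with the term was -0.091 over all members and -0.058 for complex V. For complex II it was -0.117 by week 4 and -0.023 by week 12, or -0.108 and 0.006 with centring too. SDHC (-0.011), ATP5PB (-0.017) and ATP5PD (-0.004) changed sign by week 12 with the term. Within the anti-miR-33 arm alone, 13 members were lower by week 4, 4 lower by week 12 and 10 higher in the second interval. Of all tested genes, 10.6%, 9.42% and 5.32% were called in these same directions. Within the control arm alone, which like the other has 6 animals, counts were 2 higher and 20 lower by week 4, 3 higher and 4 lower by week 12, and 7 higher and 1 lower in the second interval. The shares of all genes in that arm were 6.41% higher and 11.7% lower, 2.85% and 6.66%, and 4.04% and 4.44%, in the same order. Leaving out an animal in turn, the members lower by week 12 numbered 9 to 15, with 9 without anti-miR-33 animal 4. With the animal as a fixed replicate block, 41 of 41, 28 of 29 and 26 of 26 calls were kept from baseline to week 4, baseline to week 12 and week 4 to week 12, and with no replicate block 37, 25 and 24; the pairing rests on the animal identifiers. The cause of these differences was not tested. Signal over background limits the dim genes COX6A2, COX6B2 and NDUFS4.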
